A study of Mus musculus with 6 samples.

Results

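Thyroid hormone activation and response was described through 6 genes, Dio2, Thra, Thrb, Thrsp, Ncor1 and Ncoa1, which were taken by symbol from the deposited expression tables. All 6 had a row among the 17342 named genes. RNA had been sequenced from inguinal white adipose tissue (iWAT), a subcutaneous fat depot, taken from cold-stimulated C57BL/6 mice at 8 weeks of age. The 3 wild-type (WT) libraries, replicates 1 to 3, were compared with 3 Rarres2-/- libraries, replicates 4 to 6, in which the gene for the adipocyte-secreted protein chemerin is disrupted. Both groups were cold stimulated, and the sources used here give neither the temperature and duration of the cold nor the deleted part of Rarres2. Values were FPKM, fragment counts divided by transcript length and by the mapped fragments of the library, so levels can be set side by side between genes. Summed over named genes, FPKM came to 1884820 in WT replicate 1 and to 500311 to 809109 in the other libraries, while the median over the 11086 tested genes, those with a mean of at least 1 FPKM, was 9.05 to 9.37 in all 6. Whether every library stands for a separate mouse is not stated, so p-values may measure no more than the spread between libraries. In bulk tissue, fewer cells of a type and less RNA per cell cannot be told apart.

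Thyroid hormone is secreted mainly as thyroxine, a prohormone with little activity at the receptors. Inside brown and beige adipocytes the type 2 deiodinase, the product of Dio2, removes an iodine to give the active hormone triiodothyronine, and this step is known for its strong induction by noradrenaline and cAMP in the cold. The receptors encoded by Thra and Thrb sit on DNA together with retinoid X receptors. Without hormone they hold corepressors such as the product of Ncor1, and with hormone they exchange these for coactivators such as the product of Ncoa1. Thrsp, also called Spot 14, is a classical hormone-induced gene of fat and liver that accompanies fatty acid synthesis.

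Dio2 (chromosome 12, 90724552 to 90739038, minus strand, GRCm38) carries 2 sequence features that bear on how it is read and induced. Deiodinases hold selenocysteine, which is written as a TGA codon inside the reading frame. The GENCODE annotation marks 2 such codons among the 266 codons of Dio2, and the first, codon 130, is shown in capitals in its 30-base context at chr12:90729808-90729837. The 250 bases before the gene start, chr12:90739039-90739288 on the minus strand (RefSeq, GRCm38.p6), hold the cAMP response element TGACGTCA, shown in capitals, which begins 95 bases before the start. They are printed because the cAMP route is the textbook route from cold to this gene.
Dio2 codon 130: ggttcagccaccTGAccacctttcactagg
Dio2 promoter: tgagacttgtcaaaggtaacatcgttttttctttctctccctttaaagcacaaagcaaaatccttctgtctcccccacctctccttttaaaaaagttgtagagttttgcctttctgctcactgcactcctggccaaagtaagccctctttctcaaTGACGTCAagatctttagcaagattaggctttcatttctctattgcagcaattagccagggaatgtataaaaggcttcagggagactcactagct

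Promoter windows of 300 bases, from 250 before to 50 after the start, were at hand in RefSeq for 5 of the 6 genes, 7 windows in all. Thra had none. The windows were searched on both strands for exact matches to 4 motifs. Those were TGACGTCA, the E-box CACGTG, the nuclear receptor core site AGGTCA, and this core site repeated in the same direction with 4 bases between, the arrangement that thyroid hormone receptors prefer. The element TGACGTCA was found in Dio2 alone among these windows, and 1.79% of all 32851 windows hold it. A single AGGTCA lay in 1 Thrb window (16.3% of all windows have a match), and CACGTG in the other Thrb window (7.15%). No window of the 5 genes held the spaced repeat, which 0.0152% of all windows hold, and the Thrsp, Ncor1 and Ncoa1 windows held none of the 4 motifs. A match describes letters and does not show binding.

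The chemerin gene itself was at 436, 610 and 505 FPKM in the WT libraries, against 0.260, 6.35 and 1.41 FPKM in the Rarres2-/- ones. Adipocyte markers were abundant in every library. The 7 white adipocyte markers summed to 41716 to 50574 FPKM in the WT libraries, against 30005 to 63675 FPKM in the Rarres2-/- ones, and the 6 brown and beige markers to 1375 to 1563 and 766 to 2016 FPKM, with none at 0. WT replicate 1 and Rarres2-/- replicate 4 stood apart in the sum of the 5 endothelial markers, at 149 and 110 FPKM against 29.0 to 34.3 FPKM in the other libraries. The single markers were not uniform, with the highest value in WT replicate 1 for 3, in Rarres2-/- replicate 4 for 1 and in WT replicate 2 for 1. WT replicate 1 also had the highest sum of the 7 skeletal muscle markers (1166 FPKM against 137 to 395). The 7 macrophage markers summed to 199 FPKM in WT replicate 1, 961 and 990 FPKM in WT replicates 2 and 3, and 436 to 564 FPKM in Rarres2-/-. For the 6 fibroblast and progenitor markers these sums were 740, then 3258 and 2612, then 1424 to 1620 FPKM. WT replicate 1 was thus lowest in both lists, and WT replicates 2 and 3 lay above every Rarres2-/- library. WT replicate 3 held the highest value of all 6 lymph node markers, which summed to 24.5 FPKM there and to 1.33 to 13.1 FPKM elsewhere. The part of these markers in the results was not tested.

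By level the order was Thrsp, then Thra and Ncor1, then Ncoa1, Thrb and Dio2. Thrsp ran from 967 to 4032 FPKM and ranked between place 11 and place 48 from the top of the tested genes. Thra, from 35.6 to 44.9 FPKM, and Ncor1, from 31.0 to 50.2 FPKM, overlapped and could not be ordered. Ncoa1 followed with 8.00 to 9.43 FPKM and Thrb with 5.28 to 6.11 FPKM, without overlap between them. Dio2 was last, and its highest library (4.60 FPKM) lay below the lowest Thrb value. Between 9.15% and 29.4% of tested genes lay below Dio2, depending on the library, and at least 99.6% lay below Thrsp. The highest library exceeded the lowest 4.17-fold for Thrsp, 2.68-fold for Dio2, 1.62-fold for Ncor1 and at most 1.26-fold for Thra, Thrb and Ncoa1.

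**Figure D1:**
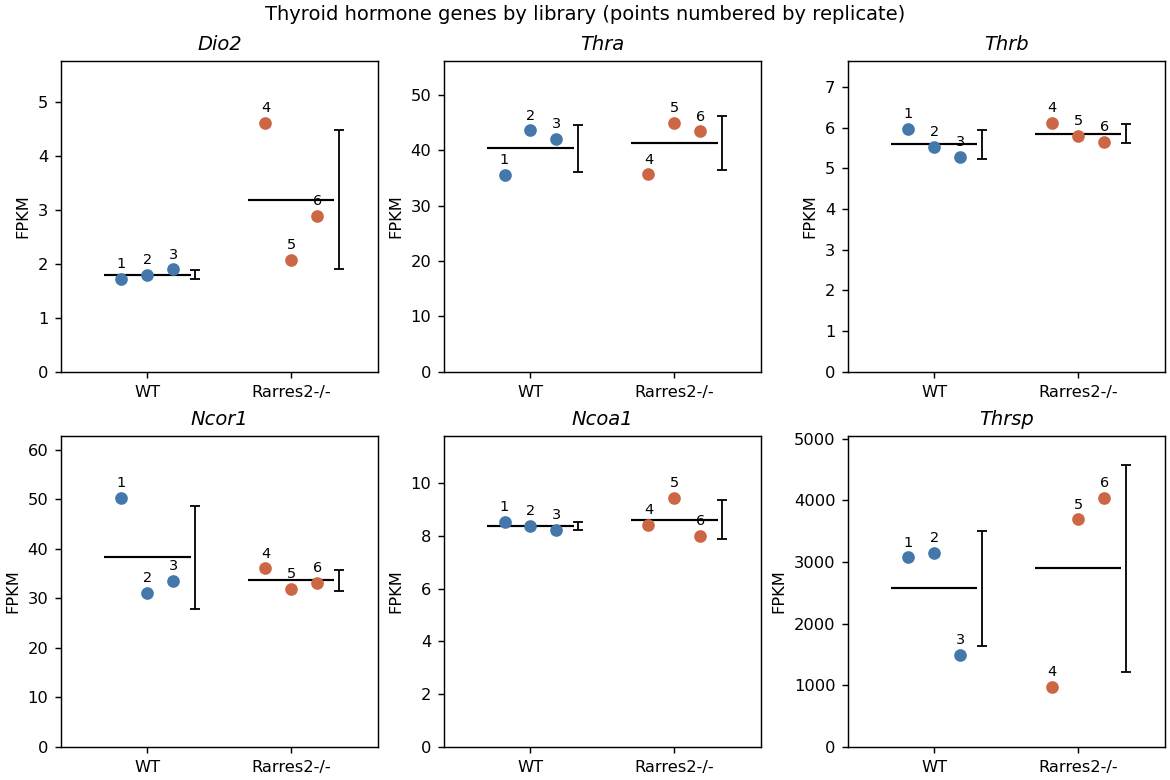
FPKM (vertical axis, linear from 0, one scale per gene) of the 6 genes in each library, numbered by replicate, with WT on the left and Rarres2-/- on the right of each panel. Horizontal lines are means and bars are SD (n = 3 each). Dio2 is the gene whose 3 Rarres2-/- points all lie above the WT points, and replicate 4 is highest for Dio2 and lowest for Thrsp.

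The activating enzyme gene Dio2 was higher in every Rarres2-/- library than in any WT library, by a margin that was small in 1 of them. It was at 1.72, 1.79 and 1.90 FPKM in the WT libraries, against 4.60, 2.08 and 2.88 FPKM in Rarres2-/- replicates 4, 5 and 6. The WT libraries lay close together, whereas the Rarres2-/- libraries were spread out, with replicate 5 just above the highest WT value. Means were 1.80 ± 0.0892 FPKM and 3.19 ± 1.29 FPKM (SD, n = 3 each), a ratio of 1.77. On the scale of log2(FPKM + 1), which understates the change of low genes, the difference was 0.54 (SE 0.233, 95% interval -0.02 to 1.09). It did not pass the test, with an adjusted p of 0.999 by limma over all tested genes (unadjusted p = 0.0562), and a two-sided exact permutation test gave p = 0.1, which is the smallest that 3 against 3 libraries allow. Much of the size rested on replicate 4, without which the log2 difference was 0.30. Without WT replicate 1 and Rarres2-/- replicate 4 it was 0.28. Replicate 4 had the lowest sum of the 6 brown and beige markers (766 FPKM) and a high endothelial sum. Singly, it was lowest in 3 of those 6 and highest in 1, Ppargc1a, and its Ucp1 (61.5 FPKM) lay above every WT library. WT replicate 1 had the highest endothelial sum and the lowest Dio2. A long noncoding gene, Gm26512, shares 100 exonic bases with Dio2 from the other strand, and no source used here says whether the counting used strand.

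Non-overlap between the genotypes was therefore seen in 1 of the 6 genes. Over all tested genes 10.3% did not overlap, 5.81% with Rarres2-/- higher and 4.53% with Rarres2-/- lower. By limma 0 of the 6 genes passed an adjusted p of 0.05, where 0% of all tested genes passed, and 0 of 6 had an unadjusted p under 0.05, where 3.93% of all tested genes did. Rarres2 itself, with the smallest p of all tested genes, had an adjusted p of 0.0597 by limma. The fit thus did not call even the disrupted gene, and not passing does not show that a gene is unchanged. The median log2 difference of the 6 genes was 0.03, with 4 higher and 2 lower in Rarres2-/-; Thrsp counts as lower by -0.0011 although its mean FPKM was higher. Over all tested genes the median was -0.01, and 48.6% were higher.

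The other deiodinase genes and Crym were at or near 0. Dio1, a second activating deiodinase, was listed at 0 in all libraries except Rarres2-/- replicate 4 (0.0337 FPKM). Dio3, which inactivates the hormone, was at no more than 0.235 FPKM, and Crym, a cytosolic hormone-binding protein, at no more than 0.157 FPKM. None of the 3 reached the level for testing, so Dio2 was the 1 deiodinase gene with a mean of at least 1 FPKM.

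Genes that make, stabilise or induce the Dio2 enzyme did not pass the test. Of 5 genes for selenocysteine insertion, 0 passed, with 3 higher and 2 lower and a median log2 difference of 0.13. Sepsecs, which forms selenocysteine on its transfer RNA, was at 3.39 ± 0.748 FPKM in the WT libraries, against 5.09 ± 1.86 FPKM in the Rarres2-/- ones (SD, n = 3 each), with overlapping libraries and its highest value in replicate 4. Its log2 difference was 0.44 over all libraries and 0.09 without WT replicate 1 and Rarres2-/- replicate 4. Eefsec, the elongation factor for selenocysteine, had a log2 difference of 0.19 (0.09 without that pair), and Sephs2, which makes the selenium donor, one of 0.13. In all 3 genes the genotypes overlapped.

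Of 5 genes with a row for the turnover of the Dio2 protein, 0 passed, with 1 higher and 4 lower (median log2 difference -0.07). Wsb1, the adaptor of the ubiquitin ligase that marks the enzyme for degradation, was at 7.95, 8.20 and 9.26 FPKM in the WT libraries, against 9.13, 5.14 and 4.19 FPKM in the Rarres2-/- ones. Replicate 4 thus lay among the WT libraries while replicates 5 and 6 lay below them all, and the log2 difference was -0.46 (SE 0.254) over all libraries, -0.74 without replicate 4 and -0.26 without replicate 6. The ubiquitin-conjugating enzyme genes Ube2j2 and Ube2g2 had log2 differences of -0.19 (SE 0.130, no overlap) and 0.11 (SE 0.159).

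Of 5 tested genes on the cAMP route, 0 passed, with 2 higher and 3 lower (median -0.07). Tshr, the thyrotropin receptor, which couples to cAMP, was at 14.2, 14.9 and 14.3 FPKM in the WT libraries, against 17.4, 16.0 and 19.3 FPKM in the Rarres2-/- ones (log2 difference 0.26, SE 0.132) with no overlap. Prkaca, a catalytic subunit of protein kinase A, had a log2 difference of 0.22 (SE 0.206), and Creb1, a factor that binds cAMP response elements, one of -0.19 (SE 0.136), both with overlapping libraries. The Prkaca value was 0.37 without Rarres2-/- replicate 4 and 0.05 without replicate 6. The bile acid receptor gene Gpbar1, the 1 gene of this list below the level for testing, was listed at 0 in all 6 libraries. The adjusted p of every gene in these 3 lists was 0.999 by limma.

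Transport of the hormone into cells is carried out by membrane carriers, 4 of which were tested, with 1 higher, 3 lower and 0 past the threshold (median log2 difference -0.06). Slc16a10, a carrier of aromatic amino acids and of the hormone, was at 10.1 ± 1.04 FPKM in the WT libraries, against 12.5 ± 1.72 FPKM in the Rarres2-/- ones (SD, n = 3 each), with overlap. Slc3a2, the shared heavy chain of amino acid carriers, had a log2 difference of -0.07 (SE 0.193). Slco1c1, Slco1a4 and Slc7a5 had means under 1 FPKM.

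The receptor genes differed between genotypes by less than the spread between libraries. Thra (chromosome 11, 98740776 to 98769006, plus strand, GRCm38) was at 35.6, 43.6 and 42.0 FPKM in the WT libraries, against 35.6, 44.9 and 43.4 FPKM in the Rarres2-/- ones. Its low libraries were WT replicate 1 and Rarres2-/- replicate 4, so the groups overlapped fully. The log2 difference was 0.03 (SE 0.164), and its 95% interval, -0.36 to 0.42, holds ratios from 0.779 to 1.34. The sign of this small difference turned in 4 of 16 alternative fits, among them the one without WT replicate 1 (-0.06). Thrb (chromosome 14, 17659225 to 18040097, plus strand) was at 5.97, 5.53 and 5.28 FPKM in the WT libraries, against 6.11, 5.81 and 5.65 FPKM in the Rarres2-/- ones. The genotypes overlapped, and the log2 difference was 0.06 (SE 0.122, 95% interval -0.23 to 0.35). Adjusted p was 0.999 for both by limma.

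Thra was the more abundant receptor gene in every library. The ratio of Thra to Thrb was 5.96, 7.88 and 7.96 in WT and 5.83, 7.73 and 7.68 in Rarres2-/- (p = 0.5 in a two-sided exact permutation test, n = 3 each). The low ratios were those of WT replicate 1 and Rarres2-/- replicate 4, the libraries with the high endothelial sums, and the other 4 lay between 7.68 and 7.96. Thra gives rise to a hormone-binding receptor and to a splice form that does not bind the hormone, and FPKM per gene does not separate them.

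The far end of Thra overlaps Nr1d1, a clock repressor gene on the other strand, over 1075 bases, of which 263 are exonic in both (GENCODE M21, GRCm38). These 263 bases are 5.70% of the exonic bases of Thra and lie in 2 of its 9 annotated transcripts. Nr1d1 was at 81.0, 61.9 and 68.3 FPKM in the WT libraries, against 68.8, 21.7 and 41.3 FPKM in the Rarres2-/- ones. It varied 3.74-fold between libraries while Thra varied 1.26-fold, and Rarres2-/- replicate 5 had the lowest Nr1d1 beside the highest Thra. The log2 difference of Nr1d1 was -0.81 (SE 0.392, adjusted p = 0.999 by limma), and it was -0.38 without replicate 5. Reads from the shared exons cannot be assigned to 1 of the genes without strand, and the part of this overlap in the Thra values was not tested.

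The retinoid X receptor genes, whose products pair with the thyroid hormone receptors, were all expressed. Of the 3, 2 were higher, 1 lower and 0 passed. Rxrg was at 11.8, 11.0 and 12.2 FPKM in the WT libraries, against 13.6, 13.4 and 16.7 FPKM in the Rarres2-/- ones (log2 difference 0.29, SE 0.141) with no overlap between the groups. Rxra and Rxrb had log2 differences of 0.12 (SE 0.138) and -0.20 (SE 0.149) with overlapping libraries, and that of Rxrb was -0.11 without WT replicate 1.

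The corepressor gene Ncor1 (chromosome 11, 62315663 to 62457414, minus strand, GRCm38) was at 50.2, 31.0 and 33.6 FPKM in the WT libraries, against 36.1, 31.9 and 33.1 FPKM in the Rarres2-/- ones. WT replicate 1 alone was high, and the other 5 libraries lay within 31.0 to 36.1 FPKM. The log2 difference was -0.15 (SE 0.208, 95% interval -0.64 to 0.35, adjusted p = 0.999 by limma), and it was 0.06 without WT replicate 1. That library also had the highest muscle and endothelial marker sums, whose part in the Ncor1 value was not tested. Ncor1 shares 82 exonic bases with Pigl on the other strand.

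Of 6 other genes of the corepressor complex, 3 were higher, 3 lower and 0 passed (median log2 difference 0.00). Sin3a, a scaffold for histone deacetylases, was at 7.39, 7.41 and 8.15 FPKM in the WT libraries, against 5.22, 5.50 and 6.00 FPKM in the Rarres2-/- ones. The Rarres2-/- libraries all lay below the WT ones (log2 difference -0.40, SE 0.124, unadjusted p = 0.0158 and adjusted p = 0.999 by limma). Gps2, a subunit of the Ncor1 complex, had a log2 difference of -0.29 (SE 0.255). Gps2, like Ncor1, was highest in WT replicate 1, at 27.9 FPKM, and its difference was -0.03 without that library.

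The coactivator gene Ncoa1 (chromosome 12, 4247362 to 4477206, minus strand, GRCm38) was at 8.52, 8.39 and 8.24 FPKM in the WT libraries, against 8.41, 9.43 and 8.00 FPKM in the Rarres2-/- ones. The genotypes overlapped, with the highest and the lowest value both in Rarres2-/-. The log2 difference was 0.03 (SE 0.124, 95% interval -0.26 to 0.33, adjusted p = 0.999 by limma). Ncor1 exceeded Ncoa1 in all libraries, by a ratio of 3.38 to 5.90, and that ratio did not separate the genotypes (p = 0.6 in a two-sided exact permutation test, n = 3 each).

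Of 9 other coactivator genes, 3 were higher, 6 lower and 0 passed (median log2 difference -0.06). The histone acetyltransferase genes Ep300 and Crebbp had log2 differences of -0.30 (SE 0.185) and -0.37 (SE 0.245). Crebbp was at 12.3 FPKM in WT replicate 1 and at 5.66 to 7.05 FPKM in the other libraries, so its difference was -0.10 without that library, and that of Ep300 was -0.15 without Rarres2-/- replicate 6. Ppargc1a, the coactivator known for driving mitochondrial and thermogenic genes, was at 4.61, 2.47 and 1.99 FPKM in the WT libraries, against 5.21, 3.13 and 3.37 FPKM in the Rarres2-/- ones (log2 difference 0.32, SE 0.280) with overlap. Its highest values were in the 2 libraries that stood apart in the endothelial sum. Its difference was 0.58 without WT replicate 1, 0.13 without Rarres2-/- replicate 4 and 0.13 without WT replicate 3.

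**Figure D2:**
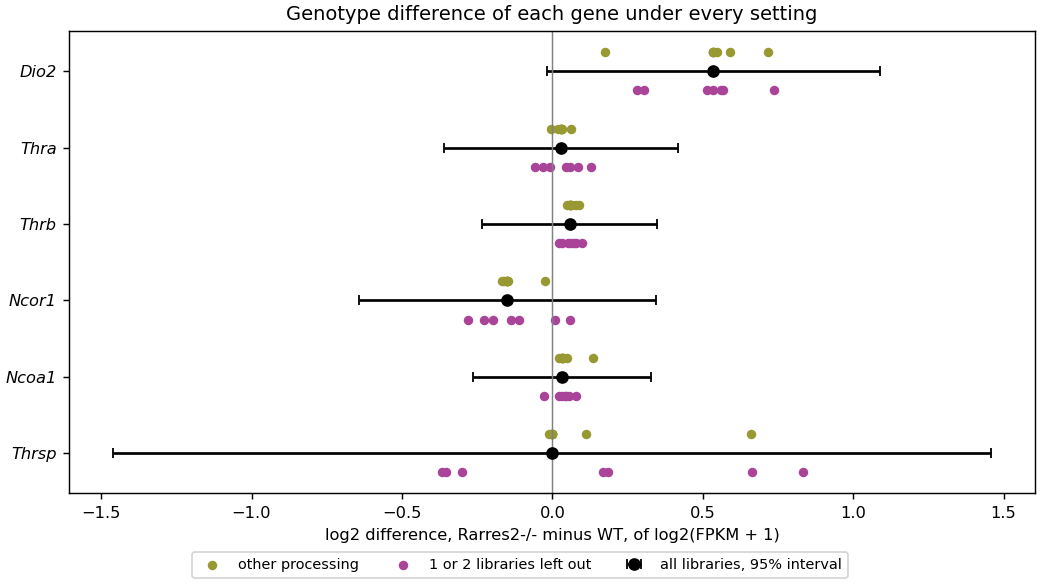
Log2 difference, Rarres2-/- minus WT, of log2(FPKM + 1) for the 6 genes. Black points with bars are the fit to all libraries with its 95% interval, and coloured points are the fits with other processing or with 1 or 2 libraries left out. Dio2 stays above 0 in all fits that tested it (not that with at least 5 FPKM in 3 libraries), while Thrsp runs from -0.37 to 0.83.

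Thrsp (chromosome 7, 97412933 to 97417550, minus strand, GRCm38), the hormone-responsive gene of lipogenesis, varied more between libraries than between genotypes. It was at 3074, 3145 and 1493 FPKM in the WT libraries, against 967, 3690 and 4032 FPKM in the Rarres2-/- ones. Both the lowest and the highest library were Rarres2-/-, and WT replicate 3 was the other low one. Means were 2570 ± 934 and 2896 ± 1680 FPKM (SD, n = 3 each), and the log2 difference was -0.0011 (SE 0.614, adjusted p = 0.999 by limma). The 95% interval, -1.46 to 1.46, holds ratios from 0.364 to 2.75, so these libraries narrow the ratio no further. Without Rarres2-/- replicate 4 the log2 difference was 0.66, without WT replicate 3 it was -0.35, and without WT replicate 1 and Rarres2-/- replicate 4 it was 0.83, which did not pass either. Rarres2-/- replicate 4 also had the lowest sum of white adipocyte markers, 30005 FPKM, whose part in its Thrsp value was not tested.

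Mid1ip1, the close relative of Thrsp, was listed with 6 factors known to act on lipogenic promoters. Mlxipl and Srebf1 of these are also among the target genes below. Of the 7, 2 were higher, 5 lower and 0 passed (median log2 difference -0.10). Mid1ip1 was at 56.4, 113 and 27.6 FPKM in the WT libraries, against 14.1, 101 and 71.0 FPKM in the Rarres2-/- ones, chosen for mention after its values were seen. It was lowest in Rarres2-/- replicate 4 and next lowest in WT replicate 3, the same pair of libraries as for Thrsp. The E-box factor gene Usf1 was at 21.7, 15.7 and 17.2 FPKM in the WT libraries, against 11.2, 11.5 and 14.0 FPKM in the Rarres2-/- ones (log2 difference -0.53, SE 0.171, unadjusted p = 0.0177, adjusted p = 0.999 by limma) with no overlap. Its partner Usf2 had a log2 difference of -0.10 (SE 0.151), and Mlx, the partner of the carbohydrate-response factor, one of -0.28 (SE 0.336), which was 0.07 without Rarres2-/- replicate 4.

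**Figure D3:**
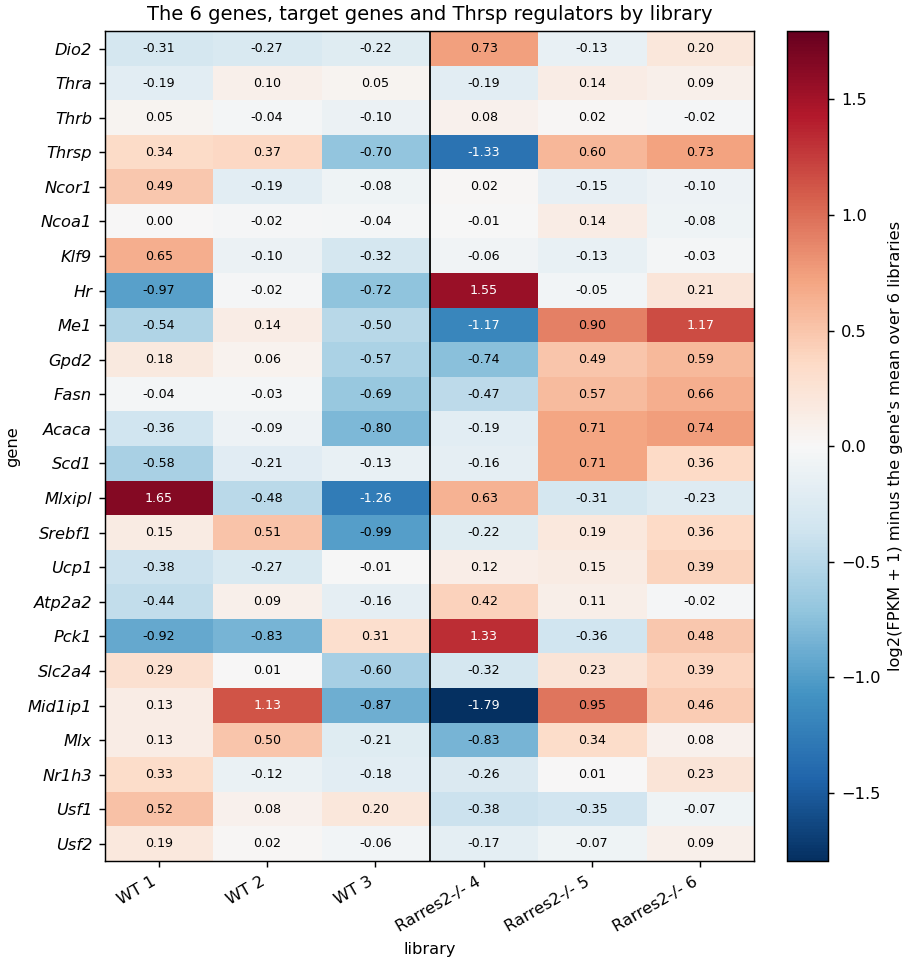
Deviation of log2(FPKM + 1) from each gene's mean over the 6 libraries (colour and printed value) for the 6 genes, the target genes and the Thrsp relative and regulators (rows), by library (columns, WT left of the line). Rarres2-/- replicate 4 is at -1.33 for Thrsp and at 0.73 for Dio2, and Thra, Thrb and Ncoa1 deviate little anywhere.

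Known thyroid hormone target genes lay mostly above 0 in the difference Rarres2-/- minus WT, with 0 past the threshold. Of 13 tested targets other than Thrsp, 12 had a log2 difference above 0 and 1 below, beside 48.6% above 0 over all tested genes. The median log2 difference of the targets was 0.44, beside -0.01 over all tested genes. Beside this, 6 of the 7 white adipocyte markers had a log2 difference above 0, and 7 of the 7 macrophage markers and 4 of the 6 fibroblast and progenitor markers had one below 0. The brown and beige markers were split, with 3 above and 3 below, and Ucp1 is both in that list and among the targets. Endothelial markers had 2 above and 3 below, and skeletal muscle markers 3 above and 4 below. The part of these markers in the target genes was not tested. A Rarres2-/- library held the highest value for 10 of the 13 targets and a WT library the lowest for 11. These 11 were WT replicate 3 for 6 and WT replicate 1 for 5, with 0 for WT replicate 2. Of the 10, 6 were in Rarres2-/- replicate 6. The same counts were not made over all tested genes, so they stand without a baseline and show no trend of the targets. Mlxipl, named after its values were seen, was among the 12 with a log2 difference of 0.06 although its mean FPKM was lower in Rarres2-/-, at 15.6 beside 21.2. Klf9, also named after its values were seen, was the 1 target below 0 (log2 difference -0.15, SE 0.266). It was at 143, 84.7 and 72.6 FPKM in the WT libraries, against 87.3, 82.9 and 88.9 FPKM in the Rarres2-/- ones. The count of targets above 0 ran from 8 of 13 without WT replicate 3, the library with the highest lymph node markers, to 13 of 13 without WT replicate 1. Several of these targets also serve fatty acid synthesis or heat production and answer to other signals than thyroid hormone, and the list was made with earlier results of these data known.

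Hr, a corepressor gene that the hormone induces directly in brain and skin, was at 3.78, 8.26 and 4.70 FPKM in the WT libraries, against 26.6, 8.06 and 9.90 FPKM in the Rarres2-/- ones. Replicate 4 stood far above the rest, as it did for Dio2, and the other Rarres2-/- libraries were near the top of the WT range. The log2 difference was 1.14 (SE 0.453, unadjusted p = 0.0404, adjusted p = 0.999 by limma) and 0.65 without replicate 4, and 0.45 with WT replicate 1 left out as well. Acaca, which makes malonyl-CoA for fatty acid synthesis, was at 112, 135 and 82.1 FPKM in the WT libraries, against 126, 236 and 242 FPKM in the Rarres2-/- ones (log2 difference 0.84, SE 0.319, adjusted p = 0.999 by limma). Ucp1, the uncoupling protein of heat production, was the 1 target without overlap. Its values were 43.1, 46.6 and 56.1 FPKM in the WT libraries, against 61.5, 62.8 and 74.6 FPKM in the Rarres2-/- ones (log2 difference 0.44, SE 0.170, unadjusted p = 0.0360, adjusted p = 0.999 by limma). Of the 3, Hr followed Dio2 in being highest in replicate 4, Acaca was highest in replicate 6 like Thrsp, and Ucp1 was also highest in replicate 6.

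**Figure D4:**
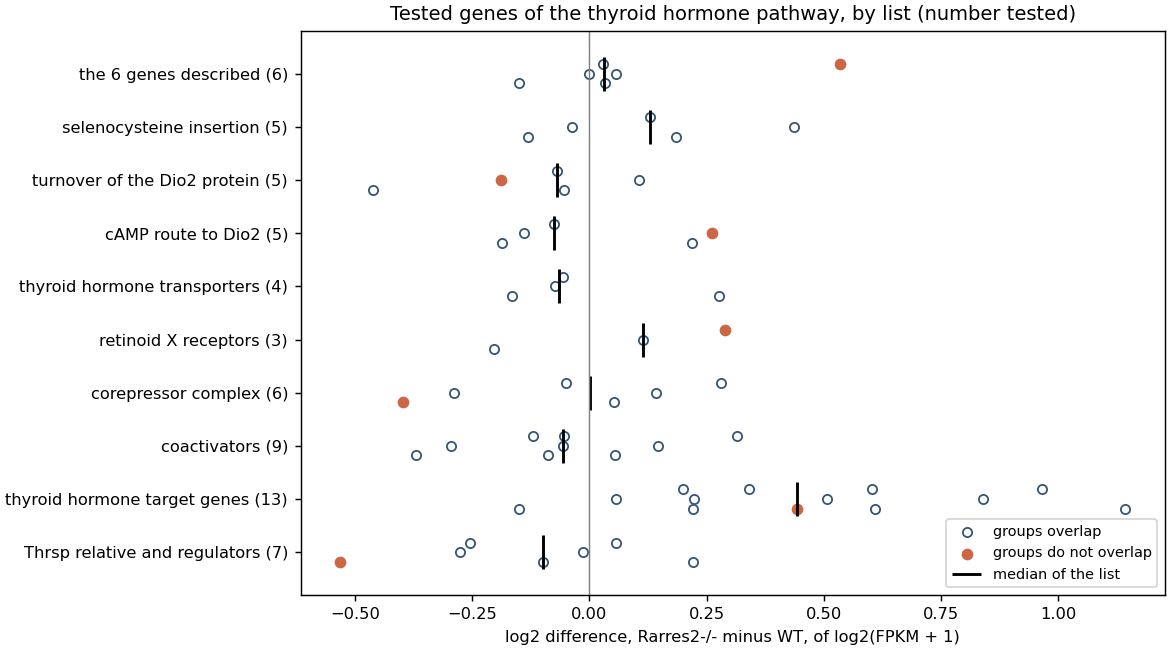
Log2 difference, Rarres2-/- minus WT, of log2(FPKM + 1) for each tested gene of the pathway (points), by list (rows, number tested in brackets). Filled points are genes whose genotypes do not overlap and black bars are list medians. The target genes lie mostly right of 0, with a median of 0.44, and the medians of the other lists lie between -0.10 and 0.13.

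Taken over all 55 tested genes of these lists, 27 were higher, 28 lower and 0 passed the threshold by limma, while 5 had an unadjusted p under 0.05 (Hr, Acaca, Ucp1, Sin3a and Usf1), beside 3.93% of all tested genes. Array weights were an alternative that weighted WT replicate 1 and Rarres2-/- replicate 4 least. With them 8 of the 55 and 0 of the 6 genes passed, where 1524 of all 11086 tested genes did. Rarres2-/- replicate 5 had a weight of 6.19 in that fit, beside 0.736 and 0.179 for replicates 6 and 4. Its Rarres2-/- side thus rested mainly on 1 library. The groups did not overlap in 6 of the 55, near the 10.3% of all tested genes, 3 with Rarres2-/- higher (Tshr, Rxrg and Ucp1) and 3 with Rarres2-/- lower (Ube2j2, Sin3a and Usf1). The median log2 difference was -0.01, equal at this precision to that of all tested genes.

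The genes with the most similar pattern to each of the 6 were sought by Pearson's r of log2(FPKM + 1) over the 6 libraries among 10540 tested genes, as a description. For Dio2 these were Nedd9, a scaffold protein of integrin signalling (r = 0.995), and Mest (r = 0.993), with 34 genes above 0.95. Mest, an imprinted gene that is high in expanding fat, was at 5.60, 6.89 and 7.45 FPKM in the WT libraries, against 98.3, 13.4 and 26.2 FPKM in the Rarres2-/- ones, so it repeats the order of Dio2 over a much wider range. For Thrsp they were the mitochondrial genes Opa3 and Timm10 (r = 0.995 each), for Thra Tmem165 (r = 0.999) and Rap1a (r = 0.994), and for Ncor1 Gtpbp5 and Mafg (r = 0.996 each). Thrb was nearest to Tnfrsf14 and Epn2 (r = 0.980 each), and Ncoa1 to Fam57a (r = 0.971) and Bbs4 (r = 0.963). Among the 10540 genes, r exceeded 0.95 in 115 for Thra, 143 for Ncor1, 68 for Thrsp, 23 for Thrb and 3 for Ncoa1. With r taken over 6 libraries, the nearest genes show a like pattern and not a tested relation.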

How the data were processed

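The analysis used 3 WT and 3 Rarres2-/- iWAT libraries. FPKM values were deposited as 1 table each, per the file headers, except that in the table of WT replicate 3 the value column carries the sample's name. It was read as FPKM because its scale was that of the others (median over tested genes 9.23 FPKM, others 9.05 to 9.37). Bowtie and mm10 appear in the submitters' processing notes, whereas no source used here states the FPKM program, its version, the annotation or the strand. No read counts were at hand, so sequencing depth is known only in relative terms. Steps between low values gave 0.480 to 1.01 times the depth of WT replicate 2, and the lowest estimate, for WT replicate 1, rests on 25 genes.

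The 737 rows without a symbol were left out. A limma 3.58.1 model (R 4.3.3) with genotype as its term was fitted to log2(FPKM + 1) of the 11086 genes averaging 1 FPKM or more, using eBayes with trend, two-sided, and Benjamini-Hochberg adjustment over all of them, with a threshold of 0.05. Exact permutation tests served for single values. The 6 genes, the gene lists and the marker lists were chosen with earlier results of these data known. The rule for named genes took, besides the 6 genes, Rarres2 and Nr1d1, up to 3 genes with the smallest p in each list, any list gene without overlap, and the 2 nearest patterns to each of the 6. List genes too low to test were named after their values were seen, and some genes that the rule took are not reported here. March6 and Slc17a4 had no row, and Adgre1 was matched as Emr1. Other settings were 3 scalings, 2 filters, a pseudocount of 0.1, no trend, robust fitting and array weights. Libraries were also left out singly or as the pair WT replicate 1 and Rarres2-/- replicate 4. No other pair was left out, and the libraries of this pair had the lowest array weights (0.192 and 0.179). Gene positions are from RefSeq and overlaps from GENCODE M21, both on GRCm38.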

Additional observations from a re-analysis of the deposited data

How the results depend on the processing

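No adjusted p under 0.05 was reached by any of the 6 genes in any of the alternatives run, by limma, and Dio2 and Thrb kept a difference above 0 in each one that tested them (Dio2 0.17 to 0.74, not tested with at least 5 FPKM in 3 libraries). The others turned in sign: Thra to -0.0043 with quantile normalization; Thrsp to 0.11 with quantile normalization and 0.66 with array weights. Array weights were lowest for WT replicate 1 (0.192) and Rarres2-/- replicate 4 (0.179) and highest for Rarres2-/- replicate 5 (6.19). They put Eefsec at -0.015 and Mlx at 0.10. Leaving out the pair WT replicate 1 and Rarres2-/- replicate 4 gave 0.83 for Thrsp, 0.0097 for Ncor1, 0.069 for Mlx and 0.028 for Usf2. Sephs2, at 0.26, did not turn. Leaving out 1 library at a time gave -0.056 to 0.13 for Thra, -0.37 to 0.66 for Thrsp, -0.28 to 0.058 for Ncor1, -0.028 to 0.078 for Ncoa1, -0.51 to 0.071 for Mlx, -0.17 to -0.032 for Usf2, -0.014 to 0.21 for Sephs2 and -0.22 to 0.072 for Slc3a2. The cause was not tested. Genes past the threshold among all tested numbered 1 (Rarres2) with upper-quartile scaling, with scaling without the 20 most abundant genes and with at least 5 FPKM in 3 libraries, 0 to 1 with 1 library left out, 177 without the pair and 1524 with array weights. With array weights 8 other pathway genes passed (Acaca, Fasn, Me1, Scd1, Sin3a, Slc16a10, Usf1 and Wsb1), as did Nr1d1 at -1.41 (adjusted p = 0.0176 by limma). Rarres2-/- replicate 5, which had the highest weight, was also lowest in Nr1d1 (21.7 FPKM). With at least 5 FPKM in 3 libraries Dio2 was not tested, and 0 of the other genes of the 6 were without overlap. In that fit 10.6% of all tested genes did not overlap. With 1 library left out, those of the 6 genes without overlap numbered 1 to 2, where 13.7% to 34.4% of all tested genes did not overlap. The number was 2 without WT replicate 1 (25.4% of all) and without Rarres2-/- replicate 4 (34.4%). Without the pair it was 3 (Dio2, Thrb and Thrsp), where 58.6% of all tested genes did not overlap. The median over all other pathway genes was 0.11 with array weights, 0.093 without the pair and -0.052 to 0.092 with 1 library left out. No paired analysis was possible because the replicate numbers, 1 to 3 in WT and 4 to 6 in Rarres2-/-, are not shared. Precision is limited by 3 libraries a group, with a median SE of 0.202 over all tested genes and 0.614 for Thrsp, and absolute depth is unknown.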
